A study of Gallus gallus with 6 samples.

Results

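The miR-15 and miR-16 family was followed in the liver of Lushi green-shell laying hens, a Chinese domestic breed. Its members were the rows of the deposited table named miR-15a, miR-15b, miR-15c, miR-16 or miR-16c, in every arm, which gave 10 of the 565 listed mature miRNAs. They comprise 5 miR-15 products and 5 miR-16 products from 6 hairpins in 3 clusters. Small RNA of female chickens was sequenced in pre-laying hens of 20 weeks (L20) and peak-laying hens of 30 weeks (L30), 3 of each, so age and laying state cannot be told apart. The sample titles call the L20 hens juvenile and the L30 hens egg-laying, while the study describes both ages as sexually mature. The study's methods state that all hens were caged in the same environment with free access to water and food, and no treatment is named. Each library is taken here as the whole liver tissue of 1 hen, since the study's methods name no pooling of hens. Fewer cells of a type and less RNA per cell cannot be told apart in such samples.

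A miRNA gene gives a hairpin, from which a 5p and a 3p strand are cut. One strand is usually kept in the silencing complex and guides it to mRNAs by the bases near its own 5′ end, the seed. The 5p products of miR-15 and miR-16 share a seed and are transcribed in pairs. In mammals they repress cyclin D1, cyclin E1 and the survival factor BCL2, and are known for holding cells back from entry into S phase. MiR-16 is also abundant in mammalian red blood cells and is often used as a reference in qRT-PCR.

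RefSeq (assembly GRCg7b) places the hairpins in pairs. MIR15A lies beside MIR16-1 within a long non-coding RNA gene, MIR15B beside MIR16-2 within SMC4, which encodes a condensin subunit needed to compact chromosomes at mitosis, and MIR15C beside MIR16C within an uncharacterised protein-coding gene whose nearest named neighbour is HPRT1, an enzyme of purine salvage. The table assigns miR-16-5p to both mir-16-1 and mir-16-2, so its reads belong to either of those clusters. The other 9 products each come from 1 hairpin. The authors' alignment tolerated up to 2 mismatches and 2 bases shortened or extended at either end, so reads of near-identical products (miR-16-5p and miR-16c-5p, or miR-15a, miR-15b-5p and miR-15c-5p) could have been counted for one another.

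The counted reads ranged from 7135289 to 14822854 in the L20 libraries and from 3864984 to 8804077 in the L30 libraries. Known miRNAs took 49.1% to 58.0% of the clean reads in L20 and 18.2% to 45.0% in L30. Levels are given as TPM, the reads of a miRNA per 1000000 clean reads, and therefore also move with this share. A limit of 3 reads corresponds to between 0.113 and 0.223 TPM, which covers counting error only, since the PCR copies carried no molecular identifiers. Because of the share, ratios between products of the same library, which need no library size, are reported beside the levels. Values of single libraries are listed by replicate, from 1 to 3.

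The family as a whole was lower in L30. Its summed level was 3191, 3058 and 2630.0 TPM in the L20 hens and 1680.5, 1444 and 696 TPM in the L30 hens. The ages did not overlap, and the mean went from 2959.6 ± 293 to 1273 ± 514 TPM (SD, n = 3 each). On the log2 scale the difference of L30 from L20 was −1.31 (two-sided exact permutation p = 0.1, and 3 hens against 3 allow none smaller). As a part of the counted miRNA reads, the family took 5505, 5478 and 5359.7 reads per 1000000 counted reads in L20 and 3734, 4349 and 3830.0 in L30, and the log2 difference was −0.46, again without overlap (exact permutation p = 0.1). Most of this difference was in miR-16. The miR-16 5p products together went from 2012 ± 137 to 548 ± 193 TPM, whereas the miR-15 5p products together had 936 ± 229 and 720.2 ± 320.4 TPM, with overlapping libraries (SD, n = 3 each). The direction of the miR-15 sum depended on the scaling, since per 1000000 counted reads it was 1711 ± 292 in L20 and 2213 ± 200 in L30 (SD, n = 3 each), again with overlap, while that of miR-16 was 3716 ± 241 and 1741 ± 203 and did not overlap.

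MiR-16-5p was the most abundant member, at rank 32 of the 565 listed miRNAs by mean TPM. It had 1857, 2030.1 and 1791 TPM in the L20 hens and 634, 606 and 310.3 TPM in the L30 hens. Every L30 library lay far below every L20 library, and the 3 L20 hens were close to one another. The mean fell from 1893 ± 124 to 517 ± 179 TPM (SD, n = 3 each), and the log2 fold change was −1.87 ± 0.49 (SE, adjusted p = 0.00279 by edgeR).

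MiR-16c-5p, the miR-16 product of the cluster with miR-15c, moved in the same direction from a lower level. Its values were 136, 128 and 95.4 TPM in the L20 hens and 48.6, 29.1 and 15.9 TPM in the L30 hens. The ages did not overlap, and the mean fell from 119.6 ± 21.4 to 31.2 ± 16.5 TPM (SD, n = 3 each), for which the log2 fold change was −1.94 ± 0.57 (SE, adjusted p = 0.00619 by edgeR). Both 5p products of miR-16 were thus called, and the possible exchange of reads between them means that the 2 calls may not be independent.

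The 3p strands of miR-16 tell the 2 hairpins apart, since each is listed separately, although the alignment could exchange reads between these as well. MiR-16-2-3p, from the cluster within SMC4, had 11.8, 7.72 and 7.84 TPM in the L20 hens and 4.60, 3.64 and 2.02 TPM in the L30 hens. All L30 libraries were below all L20 libraries, with a log2 fold change of −1.42 ± 0.62 (SE, adjusted p = 0.0707 by edgeR). With the replicate number as a block this difference was called (log2 fold change −1.46, edgeR adjusted p = 0.0418), although the labels do not say what that number marks. MiR-16-1-3p, from the cluster with miR-15a, was counted with 24, 40 and 33 reads in the L20 libraries and 32, 31 and 16 reads in the L30 libraries. The ages overlapped, with means of 1.65 ± 0.558 and 1.56 ± 0.779 TPM (SD, n = 3 each), and the log2 fold change was −0.08 ± 0.65 (SE, adjusted p = 0.950 by edgeR).

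MiR-15a, the most abundant miR-15 product, had 495, 490.2 and 390.5 TPM in the L20 hens and 529, 535 and 164 TPM in the L30 hens. L30-1 and L30-2 were above all L20 libraries, and L30-3, the library with the smallest miRNA share, was the lowest of the 6. The means were 458 ± 58.9 and 409.5 ± 212 TPM (SD, n = 3 each), and the log2 fold change was −0.16 ± 0.51 (SE, adjusted p = 0.826 by edgeR).

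MiR-15c-5p had 475, 237 and 221 TPM in the L20 hens and 370.3, 209.7 and 134 TPM in the L30 hens. The ages overlapped, and in each of them replicate 1 was well above the other libraries. Its log2 fold change was −0.39 ± 0.53 (SE, adjusted p = 0.589 by edgeR).

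MiR-15b-5p, the product made beside miR-16-2, had 214, 163 and 121.6 TPM in the L20 hens and 92.2, 57.4 and 68.7 TPM in the L30 hens. The ages did not overlap, and the log2 fold change was −1.19 ± 0.56 (SE, adjusted p = 0.0919 by edgeR). With the replicate number, whose meaning the labels do not give, as a block it was called (log2 fold change −1.18, edgeR adjusted p = 0.0404).

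**Figure D1:**
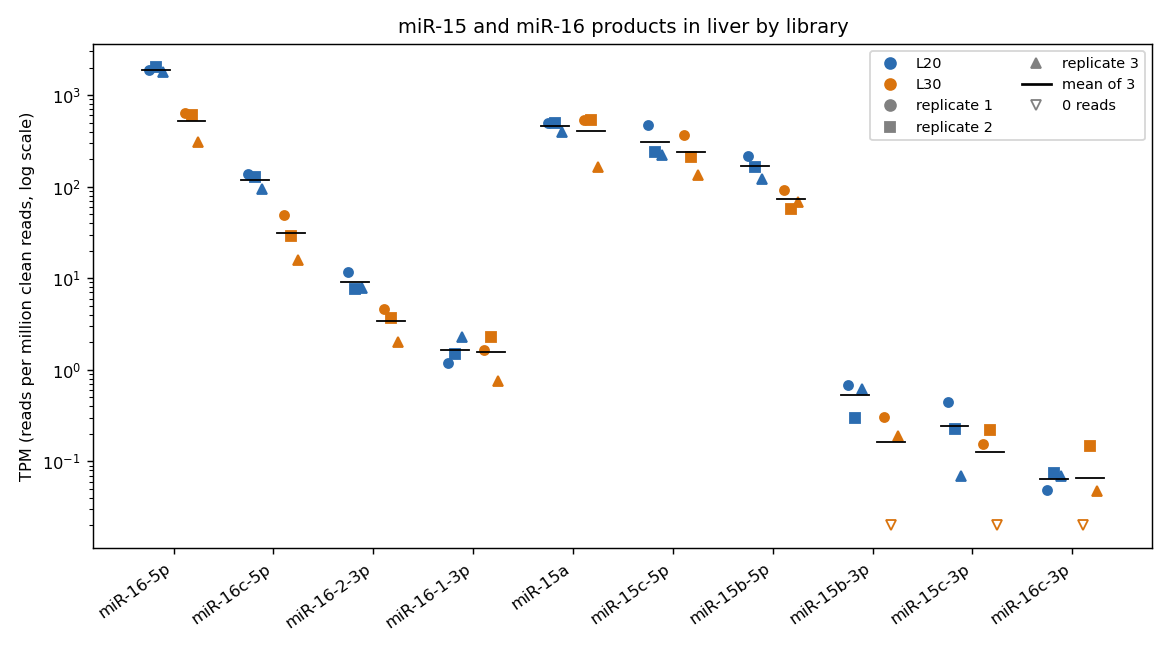
The 10 products are shown along the x axis and their level in TPM on a logarithmic y axis, with 1 point per library, the mean of 3 libraries as a bar, and open triangles at the bottom for 0 reads. MiR-16-5p lies between 1791 and 2030.1 TPM in L20 and between 310.3 and 634 TPM in L30, whereas the miR-15a libraries of the ages overlap.

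The remaining 3 members did not pass the filter on low counts and have no test in the filtered fit. MiR-15b-3p was counted with 14, 8 and 9 reads in the L20 hens and with 6, 0 and 4 reads in the L30 hens. The 0 reads in L30-2 allow up to 0.223 TPM. MiR-15c-3p was counted with 0 to 9 reads and miR-16c-3p with 0 to 2 reads per library. In a fit without the filter, the log2 fold changes of miR-15b-3p, miR-15c-3p and miR-16c-3p were −1.58, −1.05 and −0.13 (edgeR adjusted p = 0.404, 0.591 and 0.974). A difference between the ages was not detectable for these at this depth.

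Of the 10 members, 7 passed the filter and 2 were called at an adjusted p of at most 0.05, both as lower in L30, namely miR-16-5p and miR-16c-5p. Over all 236 tested miRNAs, 24.6% were called as lower in L30 and 0 as higher. Before adjustment, 4 members had a P of at most 0.05, the other two being miR-15b-5p and miR-16-2-3p, all 4 lower in L30, against 37.3% of all tested miRNAs. The block for the replicate number called these 4, and raised the calls over all miRNAs from 58 to 90, of which 88 were lower. Every L30 library lay below every L20 library for 4 of the 7 tested members, against 46.2% of all tested miRNAs. The miR-16-5p call was kept without any 1 library except L30-2, where its edgeR adjusted p was 0.0599. The miR-16c-5p call was lost without L20-1, L20-2 or L30-2, at edgeR adjusted p values of 0.0576, 0.0797 and 0.0912. Without L30-2, 0 members were called, although 2 had a P of at most 0.05 before adjustment, and 3 miRNAs were called in all. Without L30-1, 4 members were called, and 103 miRNAs in all.

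The sign of the miR-15a, miR-15c-5p and miR-16-1-3p values depended on the scaling, and that of the other 4 tested members did not, although miR-15b-5p came to −0.42 with TMM factors, −0.27 with the summed counts and −0.0024 with upper quartile factors. The median log2 fold change over the 236 tested miRNAs was −0.86 when the library size was the clean reads, −0.25 with TMM factors and −0.10 when it was the summed counts. All 58 calls were lower with the clean reads, whereas TMM factors gave 55 lower and 22 higher, and the summed counts 38 lower and 29 higher. Relative to these 3 medians, the log2 fold change of miR-16-5p was −1.01, −0.99 and −0.98, and it was called under each of the 3 (edgeR adjusted p = 0.00279, 0.00317 and 0.00512). That of miR-16c-5p was −1.08, −1.11 and −1.11 relative to the medians, and it was called under each of the 3 as well (edgeR adjusted p = 0.00619, 0.00317 and 0.00521). These were the only 2 members called under TMM factors and under the summed counts, where 23.3% and 16.1% of the tested miRNAs were called as lower. A change of library size shifts all log2 fold changes by a similar amount. The near-equal values relative to the 3 medians follow from this and are not separate evidence. As a share of the counted reads, every L30 library lay below every L20 library for miR-16-5p, miR-16c-5p and miR-16-2-3p, 3 of the 7 tested members, against 27.5% of the tested miRNAs, whereas for miR-15a the L30 libraries were all higher than the L20 libraries, as for 19.5% of the tested miRNAs.

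MiR-15a went the other way relative to the median, by 0.70, 0.65 and 0.65 under the same 3 scalings. Its log2 fold change turned to 0.40 under TMM factors and to 0.55 with the summed counts (edgeR adjusted p = 0.229 and 0.113). For miR-15c-5p the values relative to the medians were 0.48, 0.48 and 0.47, and for miR-16-1-3p 0.78, 0.76 and 0.76. MiR-15b-5p, at −0.33, −0.17 and −0.16, was closest to the median of all tested miRNAs. MiR-16-2-3p was under it, at −0.55, −0.53 and −0.53. None of these 5 was called under the 3 scalings without a block.

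**Figure D2:**
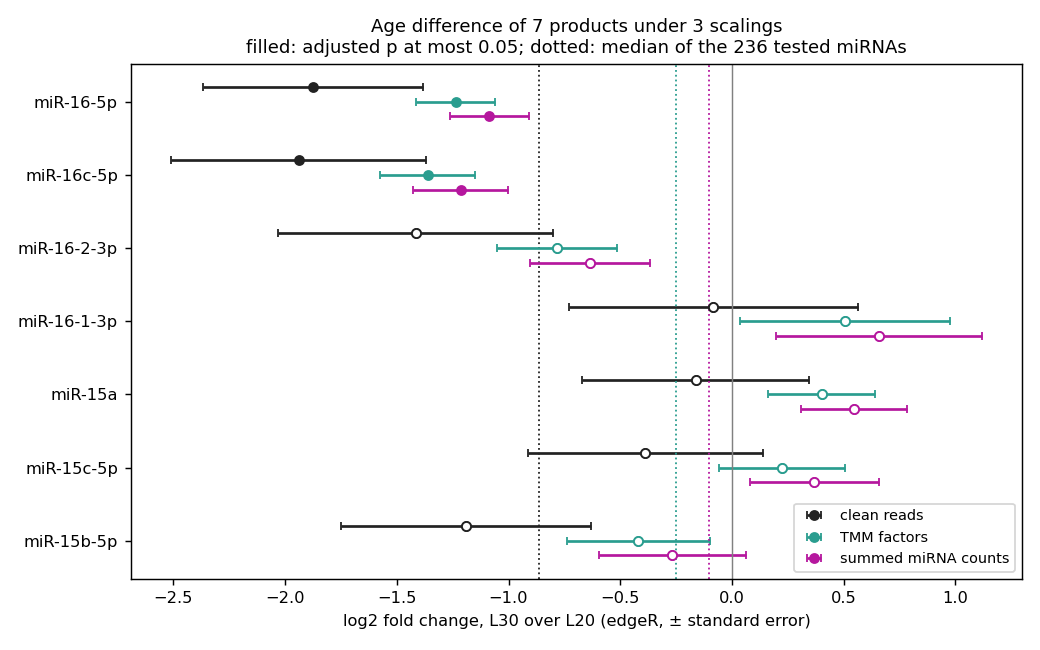
The x axis gives the log2 fold change of L30 over L20 from edgeR with its standard error for the 7 tested products, in black for clean reads, green for TMM factors and magenta for the summed miRNA counts. Filled points have an adjusted p of at most 0.05, which only miR-16-5p and miR-16c-5p reach, and the dotted lines mark the median of all tested miRNAs, at −0.86, −0.25 and −0.10.

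Whether miR-15 and miR-16 products moved unequally was tested on the ratio of their reads within each library. The reads of the miR-16 5p products were 1.68, 2.42 and 2.57 times those of the miR-15 5p products in the L20 hens, and 0.688, 0.791 and 0.889 times in the L30 hens. MiR-16 was the larger side in all 3 L20 libraries and the smaller side in all 3 L30 libraries. The mean log2 ratio went from 1.13 ± 0.33 to −0.35 ± 0.19 (SD, n = 3 each), a difference of −1.48 (standard error 0.22, exact permutation p = 0.1, the least possible). Such ratios carry the efficiency with which each product is ligated, so a ratio of 1 does not mean equal numbers of molecules, whereas a shift between libraries prepared alike is free of it. Of all pairs among the tested miRNAs, 42.6% had ratios that did not overlap between the ages.

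The pairs were also taken 1 by 1. The cluster of miR-15c and miR-16c is the only one of the 3 with no shared product, although its reads too could have been exchanged with those of the more abundant miR-16-5p and miR-15a. MiR-16c-5p had 0.286, 0.537 and 0.432 reads per read of miR-15c-5p in the L20 hens, and 0.131, 0.139 and 0.119 in the L30 hens. The 3 L30 libraries were nearly equal, and the log2 difference was −1.65 (standard error 0.27, exact permutation p = 0.1). MiR-16-5p had 3.75, 4.14 and 4.59 reads per read of miR-15a in L20 and 1.20, 1.13 and 1.89 in L30, a log2 difference of −1.60 (standard error 0.25, exact permutation p = 0.1). Against miR-15b-5p the ratio was 8.68, 12.5 and 14.7 in L20 and 6.88, 10.6 and 4.51 in L30, which overlapped, with a log2 difference of −0.76 (standard error 0.42, exact permutation p = 0.2). In all, 16 ratios were tested, and the exact permutation p of 0.1 became 0.2 after Benjamini-Hochberg adjustment.

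The clusters were compared through products that only 1 of them makes. MiR-15a had 2.31, 3.01 and 3.21 reads per read of miR-15b-5p in the L20 hens and 5.74, 9.33 and 2.39 in the L30 hens. L30-1 and L30-2 were above all L20 libraries but L30-3 was among them, and the log2 difference was 0.84 (standard error 0.59, exact permutation p = 0.3). Without L30-3 it was 1.38 and without L30-2 it was 0.40. MiR-15c-5p gave a similar picture against miR-15b-5p, with a log2 difference of 0.76 (standard error 0.37, exact permutation p = 0.2). Between miR-15a and miR-15c-5p the log2 difference was 0.08 (standard error 0.44, exact permutation p = 1).

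The 3p strands compare the first 2 clusters on the miR-16 side. MiR-16-1-3p had 0.10, 0.195 and 0.289 reads per read of miR-16-2-3p in the L20 hens and 0.356, 0.633 and 0.372 in the L30 hens. All L30 libraries were above all L20 libraries, with a log2 difference of 1.29 (standard error 0.52, exact permutation p = 0.1). These ratios rest on 16 to 40 reads of miR-16-1-3p per library.

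**Figure D3:**
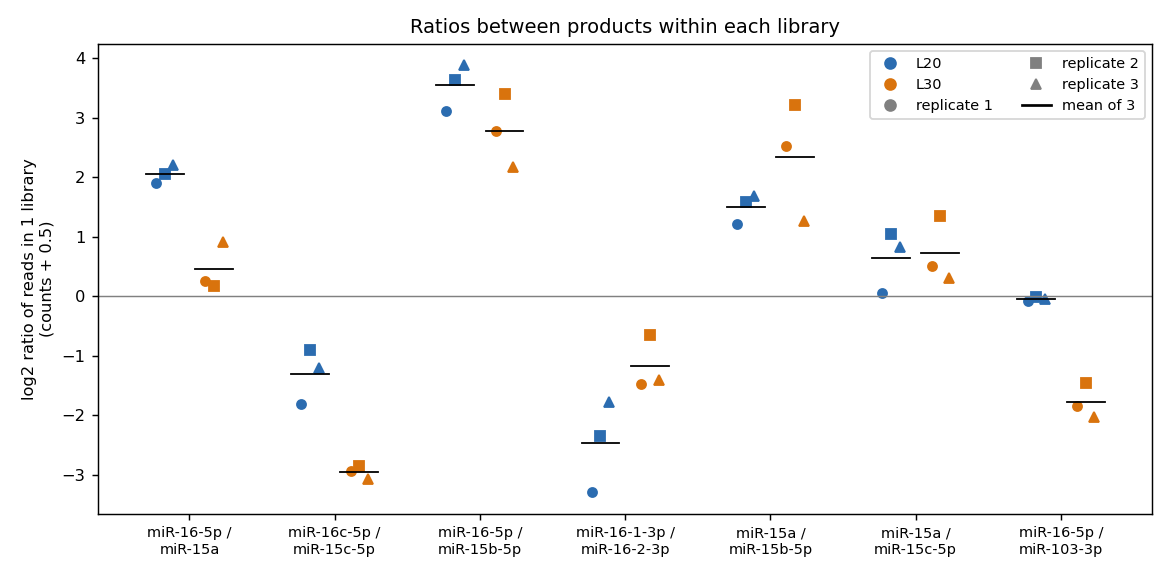
Each column is a ratio of 2 products and the y axis is the log2 ratio of their reads in 1 library, with 1 point per library and bars for the mean of 3. The ages separate for miR-16-5p over miR-15a, miR-16c-5p over miR-15c-5p, miR-16-1-3p over miR-16-2-3p and miR-16-5p over miR-103-3p, and overlap in the other columns.

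For miR-15b, miR-15c, miR-16 and miR-16c, where both arms are listed, the 5p strand took most of the reads, whereas only 1 product of miR-15a is listed. Together, the 5p products made up 99.6% to 99.7% of the family's reads in each library. MiR-16-5p had 143, 220.0 and 177 reads per read of its 3p strands (miR-16-1-3p and miR-16-2-3p together) in the L20 hens and 102, 102 and 112 in the L30 hens. The log2 difference was −0.76 (standard error 0.19, exact permutation p = 0.1), with no overlap. The mix of the 2 3p strands also differed, at 0.10 to 0.289 reads of miR-16-1-3p per read of miR-16-2-3p in L20 and 0.356 to 0.633 in L30. The pooled ratio moves with this mix too, so it does not measure arm use within either hairpin. The ratio of miR-16-5p to each 3p strand alone was not tested. The 3p strands of miR-15b, miR-15c and miR-16c had 41, 22 and 7 reads over all 6 libraries, which is too few to compare their arms between the ages (exact permutation p = 0.6, 0.7 and 0.4).

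The make-up of the family followed from these values. MiR-16-5p took 58.2%, 66.4% and 68.1% of the family's reads in the L20 hens and 37.7%, 42.0% and 44.6% in the L30 hens. The share of miR-15a lay between 14.8% and 16.03% in L20 and between 23.6% and 37.1% in L30, and that of miR-15c-5p between 7.76% and 14.9% and between 14.5% and 22.0%. MiR-15b-5p took 4.62% to 6.71% in L20 and 3.98% to 9.88% in L30. All miR-15 products together were 31.4% ± 5.02 of the family's reads in L20 and 55.8% ± 3.15 in L30 (SD, n = 3 each). By level, the order of the 5p products in L20 was miR-16-5p, miR-15a, miR-15c-5p, miR-15b-5p and miR-16c-5p. The ranges of miR-15a and miR-15c-5p overlapped there, as did those of miR-15b-5p and miR-16c-5p. In L30 the order was the same, and the ranges of miR-16-5p and miR-15a, at 310.3 to 634 and 164 to 535 TPM, also overlapped, whereas those of miR-15b-5p and miR-16c-5p no longer did.

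**Figure D4:**
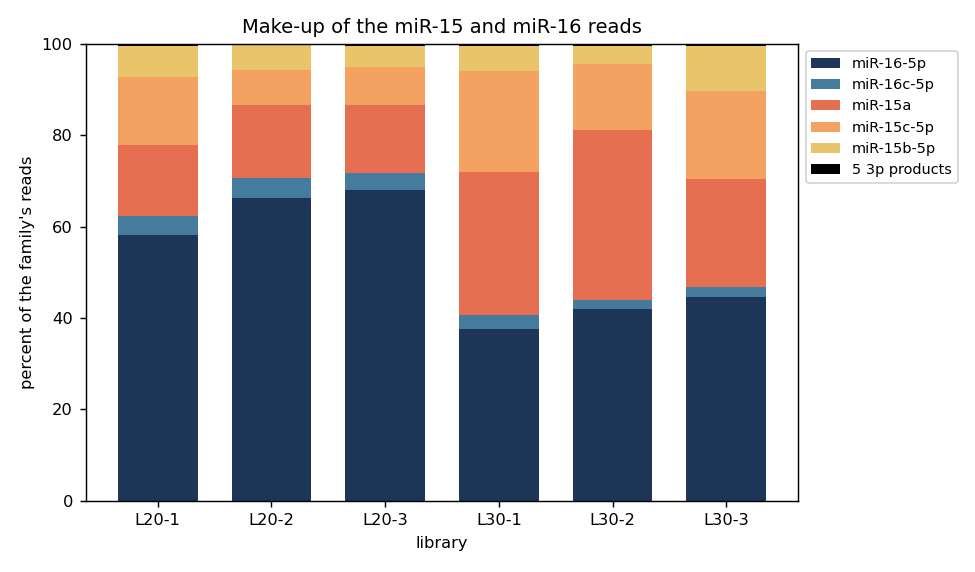
The bars give, for each library on the x axis, the percent of the family's reads taken by each 5p product and by the 5 3p products together. The miR-16 5p products are in blue, the miR-15 5p products in orange and yellow, and the 3p products of both in black. Counting their 3p products, the miR-16 products take 62.9% to 72.1% in L20 and 41.0% to 47.3% in L30. The miR-15 products take the rest.

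MiR-103 and miR-107, hosted in pantothenate kinase genes in vertebrates and known in mice for acting on insulin sensitivity, carry a seed that overlaps that of miR-15 and miR-16. MiR-103-3p had 1958, 2045 and 1858 TPM in the L20 hens, close to miR-16-5p, and 2280.1, 1658 and 1271 TPM in the L30 hens. The ages overlapped, with a log2 fold change of −0.17 ± 0.46 (SE, adjusted p = 0.810 by edgeR). Under the summed counts it was called as higher, at 0.66 (edgeR adjusted p = 0.0338). The reads of miR-16-5p were 0.948, 0.993 and 0.964 times those of miR-103-3p in the L20 libraries and 0.278, 0.365 and 0.244 times in the L30 libraries. The log2 difference was −1.73 (standard error 0.17, exact permutation p = 0.1), while that of miR-15a to miR-103-3p was −0.13 (standard error 0.39, exact permutation p = 0.8). MiR-107-3p went from 1119.9 ± 167 to 625 ± 163 TPM (SD, n = 3 each), for which the log2 fold change was −0.84 ± 0.49 (SE, adjusted p = 0.189 by edgeR). Its log2 fold change was −0.14 with TMM factors and 0.010 with the summed counts (edgeR adjusted p = 0.620 and 0.967). Of other miRNAs that carry the seed or most of it in vertebrates (miR-195, miR-322, miR-424, miR-457, miR-497 and miR-503), 0 are listed under these names among the 565 miRNAs.

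The profile of miR-16-5p over the 6 libraries was compared with those of the other 235 tested miRNAs by the root mean square difference of log2(TPM + 1) after each profile's mean was subtracted, as a description of 6 points that share library depth and miRNA share. The nearest outside the family were miR-33-3p (0.163), a strand of the hairpin that a sterol regulator gene carries in vertebrates, miR-2131-5p (0.186) and miR-147 (0.210). MiR-33-3p, for example, had 126, 187 and 149 TPM in the L20 hens and 49.7, 44.5 and 19.9 TPM in the L30 hens. MiR-2131-5p had only 2.15, 2.30 and 0.893 TPM in the L30 hens, where adding 1 to the TPM narrows differences. Its edgeR log2 fold change was −2.64, against −1.87 for miR-16-5p. Within the family, miR-16c-5p was at rank 10 (0.244), while miR-16-2-3p, miR-15b-5p, miR-15a, miR-15c-5p and miR-16-1-3p were at ranks 54, 84, 148, 160 and 178. As a share of the counted reads, the nearest were miR-29a-5p, miR-33-3p and miR-18a-5p, and miR-16c-5p was again at rank 10.

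Markers of the cell types that liver can hold also moved with age. The hepatocyte miRNAs (both arms of miR-122) summed to 50943 to 71220 TPM in L20 and 12896 to 38273 TPM in L30, so the miRNA that defines liver was present in all 6 libraries. The erythroid list (miR-451 and both arms of miR-144) summed to 1597 to 3181 TPM in L20 and 288 to 1197 TPM in L30, and the leukocyte list (both arms of miR-142, miR-223 and miR-155) to 4627 to 6736 and 943 to 3664 TPM. The endothelial list (both arms of miR-126) summed to 28732 to 42751 and 6458 to 14792 TPM. Of the 11 markers, 8 were called as lower with the clean reads, namely 1 of 2 hepatocyte, 2 of 3 erythroid, 3 of 4 leukocyte and 2 of 2 endothelial markers, and 6 with the summed counts. Of all tested miRNAs, 24.6% and 16.1% were called as lower under these 2 scalings. Upper quartile factors called 5 markers as lower, 0 of them hepatocyte, and 25 of the 236 tested miRNAs. Raw reads called all 11 markers as lower and 75 of the tested miRNAs, and TMM factors 9 and 55. The hepatocyte marker called with the clean reads was miR-122-3p. MiR-122-5p, which made up most of the hepatocyte sum, was not called there (edgeR adjusted p = 0.0622). With the replicate number as a block, miR-122-5p, miR-144-5p and miR-142-5p were also called as lower (edgeR adjusted p = 0.0132, 0.0110 and 0.00481). The 8 called with the clean reads were kept, and 88 of the 236 tested miRNAs were called as lower. Both arms of a hairpin count as separate markers here, so the calls are not independent. No marker was at 0. As a share of the counted reads, the L30 mean was 0.466 times the L20 mean for the erythroid list, 0.521 times for the endothelial list, 0.717 times for the leukocyte list and 0.781 times for the hepatocyte list, and 0.469 times for the miR-16 5p products. The leukocyte sum is mostly miR-142-5p (0.742 times), whereas miR-142-3p, miR-223 and miR-155 were at 0.484, 0.466 and 0.505 times. The part of these cell types in the miR-16 result was not tested.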

How the data were processed

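Small RNA of liver from 3 L20 and 3 L30 hens was sequenced, taken here as 1 library per hen. According to the study's methods, the authors used fastx_toolkit 0.0.13.2 to trim adaptors and drop low-quality reads and reads under 18 nt, and CLC Genomics Workbench 5.5 to align what was left (the clean reads) to miRBase 21.0. The authors deposited the read count of each mature miRNA in each library, without normalization. The TPM columns deposited beside them were found to be per 1000000 raw reads, and were replaced by TPM per 1000000 clean reads, with the clean reads that the study lists.

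The quasi-likelihood test of edgeR 4.0.16 (R 4.3.3, robust glmQLFit) compared the counts of the ages, with clean reads as library sizes, after filterByExpr (minimum count 10, minimum total 15), and p values were adjusted by Benjamini and Hochberg over all 236 tested miRNAs. The SE printed with an edgeR log2 fold change is its absolute value divided by the square root of the test's F statistic. EdgeR shares its estimate of the spread over all tested miRNAs. Its p values therefore do not measure the spread of 1 miRNA over the hens alone. Single values and log2 ratios (counts + 0.5) used exact permutation tests over 20 regroupings. Alternatives were raw reads, summed counts, TMM, upper quartile and DESeq2 1.42.0 size factors, DESeq2's test, limma 3.58.1 on log2(TPM + 1) or log2(TPM + 0.1), Fisher's test on pooled counts, other filters, each library left out, and a replicate block. Only the tests of edgeR, DESeq2 and limma were tried on simulated counts, with changes in both directions and no shift in miRNA share. The spread between libraries set there was smaller than in the main fit here. The simulation therefore does not show how these tests behave on the present data, and the permutation tests were not part of it.

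Same-numbered libraries of the ages come from different hens, and nothing in the labels says what the number marks. Their deviations from the group means correlated at 0.119, 0.171 and 0.188 over the tested miRNAs, all above 0.1. Blocked values are therefore given where they change a call among the members or the cell type markers. Differently numbered libraries of the ages correlated at −0.134 to −0.0173. The deviations within an age cancel out, so these correlations are not independent. Whether the number marks anything that the libraries share was not tested. The miRNAs named are all members, miRNAs that share the seed or most of it, cell type markers and the 3 nearest profiles. The members and lists were chosen with earlier results of these data known. Ratios and figures were made in Python 3.11.15 (matplotlib 3.10.9). Host and neighbouring genes of the hairpins come from RefSeq (GRCg7b), and no sequence was used here.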

Additional observations from a re-analysis of the deposited data

How the results depend on the processing

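The number of members called was 2 with the clean reads and also with TMM, DESeq2's size factors, upper quartile factors, summed counts and no filter, and miR-16-5p and miR-16c-5p were the 2 in each. It was 3 with raw reads, limma or at least 10 counts in every library, which added miR-16-2-3p, 4 with DESeq2's test, 4 with the replicate block and 6 with Fisher's test on pooled counts, which ignores the spread between hens, and between 0 and 4 with each library left out. Over all miRNAs, 58 were called, 75 with raw reads, 78 with limma, 61 of 185 with at least 10 counts in every library, 81 with DESeq2's test, 90 with the replicate block, 205 with Fisher's test, and between 3 and 103 with each library left out. TMM factors gave 77 calls, the summed counts 67, and a fit without the filter 48 of 565. DESeq2's size factors gave 71 calls, 38 lower and 33 higher. Upper quartile factors gave 66, 25 lower and 41 higher, with a median log2 fold change of 0.12. MiR-15a turned to 0.55, 0.40, 0.56 and 0.77 on the log2 scale with the summed counts, TMM, DESeq2 size factors and upper quartile factors, miR-15c-5p to 0.37, 0.22, 0.39 and 0.62, and miR-16-1-3p to 0.66, 0.50, 0.66 and 0.90. With each library left out, the log2 fold change ranged from −0.40 to 0.21 for miR-15a, from −0.86 to 0.054 for miR-15c-5p and from −0.46 to 0.26 for miR-16-1-3p. The cause of these changes was not tested. The log2 difference of the miR-16 to miR-15 ratio stayed between −1.67 and −1.36 with each library left out, that of miR-15a to miR-15c-5p between −0.24 and 0.29, and that of miR-15b-5p to its 3p strand between −0.023 and 1.22. The replicate block changed no call among the members other than miR-15b-5p and miR-16-2-3p. For the ratios and the family sum, the mean of the paired differences equals the difference of the means, so the block could not move the value. The smallest possible exact p of the paired permutation test was 0.25. Depth limits the 3p products most.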
